A study of Mus musculus with 12 samples.

Results

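The effect of luteolin on gene expression was taken over both activation states of BV-2 cells, an immortalized mouse microglial line. The members of the comparison were the 6 of 12 arrays from cells that received luteolin, set against the 6 arrays from cells that did not. The cells were left untreated (control), or received luteolin at 50 µM, LPS (bacterial lipopolysaccharide) at 50 ng/ml, or both agents together (luteolin + LPS). All treatments lasted 24 h, and each of the 4 conditions was hybridized to 3 arrays from replicate experiments numbered 1 to 3. The line, the time and the array type were shared by all groups. The paper describes luteolin as dissolved in DMSO, and whether control cells received DMSO is not given in the sources used here. The extraction protocol of the labels names PUER cells, and the paper's methods print the joint treatment as LPS with LPS. The arrays were taken as BV-2 and as luteolin with LPS, as the other labels give them. A gene was called when luteolin changed its log2 signal at an adjusted p under 0.05 in a limma model with luteolin, LPS and replicate number as additive terms. A called gene was said to have moved alike when the difference between arrays of the same number had 1 sign in all 6 pairs (3 without and 3 with LPS) and the smaller of the log2 fold changes of both states was at least 0.5 of the larger. Of 12071 genes tested, 884 moved alike.

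Luteolin is a plant flavone, and its catechol ring can be oxidized to a quinone that reacts with thiols. Reactive compounds of this kind release the transcription factor NRF2 from its thiol-rich inhibitor KEAP1, and NRF2 then binds antioxidant response elements in genes of glutathione and thioredoxin metabolism. The integrated stress response is another stress programme, in which phosphorylated eIF2alpha favours translation of ATF4, and ATF4 with C/EBP partners drives Ddit3, Trib3 and aminoacyl-tRNA synthetase genes. LPS acts through TLR4 and raises cytokine and interferon response genes in microglia, so that a treatment can be looked at before and after this activation.

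The values were RMA signals, in which quantile normalization gives all arrays nearly the same distribution, so that a shift shared by most genes cannot be seen. The RNA came from whole cultures, in which fewer cells of a kind and less RNA per cell cannot be told apart. A signal belongs to 1 probe set and was compared between arrays, not between genes. All 12 markers of microglia and macrophages were measured, 10 of them (among them Csf1r, Itgam, Spi1 and Tyrobp) had a signal of at least 50 on all arrays, and none was called (2 higher and 3 lower in limma at an unadjusted p under 0.05). Their summed signal was 56565 to 74292 with luteolin and 60397 to 72462 without. Of 6 measured markers of homeostatic microglia none reached 50 on all arrays, Sall1 was below 50 on all arrays, and P2ry12 was called lower (log2 fold change -0.97, in 3 of the 12 fits that left out 1 array). Their summed signal was 221 to 387 with luteolin and 221 to 416 without. Below 50 on all arrays were 7 of 9 neuronal and 3 of 7 astrocytic markers. So were 3 of 6 oligodendrocytic and 6 of 7 fibroblast markers. Rbfox3 (neurons), Gfap and Slc1a3 (astrocytes) and Mbp, Mag and Cnp (oligodendrocytes) had at least 50 on all arrays. None of the markers tested in these lists was called. At an unadjusted p under 0.05, limma gave 1 oligodendrocyte gene higher and 1 lower. The summed signals with and without luteolin were 383 to 421 and 370 to 419 for neurons, 291 to 323 and 292 to 347 for astrocytes, 883 to 2024 and 1385 to 2448 for oligodendrocytes, and 202 to 216 and 191 to 207 for fibroblasts.

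Luteolin changed 1179 genes over both states. The signal was higher for 454 genes (3.76% of those tested) and lower for 725 (6.01%). Of the called genes 1065 had 1 sign in all 6 pairs, as did 8.43% of all genes tested upwards and 10.2% downwards. The genes that moved alike were 330 with a higher signal (2.73% of genes tested) and 554 with a lower one (4.59%). The split between directions depended on the scaling. After each array was centred on its median, which moved the median of all genes by 0.04 on the log2 scale, 610 genes were higher and 547 lower, or 52.7% higher against 38.5% with the signals as deposited. The changes were small in most genes. The median log2 fold change was 0.45 for genes called higher and -0.48 for those called lower, and 50 genes exceeded 1 in size, 12 of them higher and 38 lower. The signals of the 6 arrays with luteolin did not overlap with those of the 6 arrays without it in 311 genes tested (2.58%), of which 270 were called. The calls rest on the same arrays and the same contrast. Neither this count nor that of genes with 1 sign in all 6 pairs is therefore separate support for them. Whether the states differed was tested by the interaction term in limma. It passed the adjusted threshold in no gene (0%), and 798 genes had an unadjusted p under 0.05. This does not show equal responses. Among genes that moved alike, the median half-width of the 95% interval of the difference between states was 0.43 on the log2 scale.

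**Figure D1:**
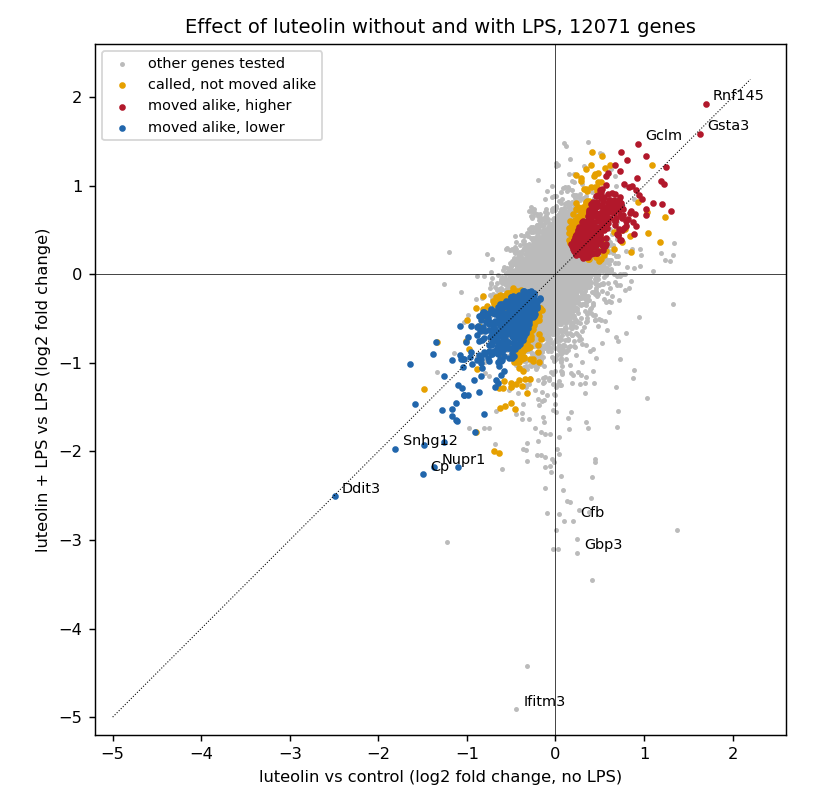
Log2 fold change by luteolin without LPS (x axis) against that with LPS (y axis) for the 12071 genes tested, with the dotted line marking equal values. Red and blue points are the 330 higher and 554 lower genes that moved alike, which the rule places near the line, and orange points are called genes outside the rule. Ifitm3, Gbp3 and Cfb lie far below the line and were not called.

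At the limits of the rule, the called gene closest to the threshold had an adjusted p of 0.0497 and the nearest gene outside it one of 0.0501. The ratio of the smaller to the larger fold change was 0.501 in the last gene inside and 0.499 in the first gene outside. The called genes that did not move alike were 114 with 1 of 6 pairs against the others and 181 with 1 sign but a ratio under 0.5. The 5 largest such changes in each direction were those of Cd14, the LPS co-receptor (log2 fold change 0.94), Nfkbid, a nuclear IkB protein (0.93), Zfyve27 (0.93), Ptprj (0.89) and Snn (1.16), which rose, and of Avil (-1.39), Fabp3, a fatty acid-binding protein (-1.35), H1f2, a linker histone (-1.34), Serpinb1a, a protease inhibitor (-1.32) and Rasl2-9 (-1.07), which fell. In the 12 fits that left out 1 array, Cd14 was called in 12, Rasl2-9 in 10, Nfkbid and Ptprj in 9, Serpinb1a in 8, H1f2 in 5, Zfyve27 in 4, Avil and Fabp3 in 3 and Snn in 2. All 6 signals of Snn without luteolin were below 50, so that it reached the minimum for testing only with luteolin. With signals under 50 set to 50 its value was 0.80 and the call was lost (adjusted p = 0.0516).

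Rnf145, an E3 ligase of the ER membrane that takes part in sterol control, had the largest increase of all genes tested. Its signal was 464, 827 and 825 in the control arrays and 1912, 2486 and 2275 with luteolin. In LPS arrays it was 348, 961 and 787, and with luteolin + LPS 1850, 3999 and 1944. All 6 signals with luteolin lay above all 6 without it. The log2 fold change was 1.81 (SE 0.16, adjusted p = 0.00103), with 1.70 without LPS and 1.92 with LPS, and the difference between states was 0.23 (95% interval -0.52 to 0.98).

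Lpcat1 acylates lysophosphatidylcholine. Its signal was 1387, 1356 and 1579 in control arrays, 2737, 3005 and 2997 with luteolin, 573, 1029 and 1104 with LPS and 1972, 3474 and 1526 with luteolin + LPS. The lowest array with luteolin lay just below the highest without it, and the gene rose by 1.18 on the log2 scale (SE 0.19, adjusted p = 0.00712). B4galt5, which makes lactosylceramide, had 864, 990 and 846 in control arrays, 1409, 1675 and 1389 with luteolin, 483, 948 and 667 with LPS and 1188, 2348 and 1247 with luteolin + LPS, with no overlap (log2 fold change 0.95, adjusted p = 0.00472). Other genes among the 15 largest increases that moved alike were BC049762 (1.23), Styxl1, a pseudophosphatase (1.12), Gpr137b, a lysosomal membrane protein (1.06), Cyria, a Rac1-binding protein (1.05), A630072M18Rik (1.0), C3ar1, the receptor for complement C3a (1.0) and Sirpb1a, a signal-regulatory protein (0.95). The signals of BC049762 were 83 to 149.5 with luteolin and 41.5 to 56.6 without, and those of Styxl1 54.4 to 149 and 27.9 to 45.3, so that both genes lay near background without luteolin. Their means reached 50, the minimum for testing, only in the conditions with luteolin. A630072M18Rik had signals down to 18.5, and with signals under 50 set to 50 its value was 0.68 and the call was lost (adjusted p = 0.0539). Gpr137b and Cyria stayed called in 4 of the 12 fits that left out 1 array, A630072M18Rik in 10 and the other 12 of these 15 genes in each. Further probe sets gave 0.58 for Gpr137b, 0.48 for Cyria and 0.45 for B4galt5 at their lowest.

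**Figure D2:**
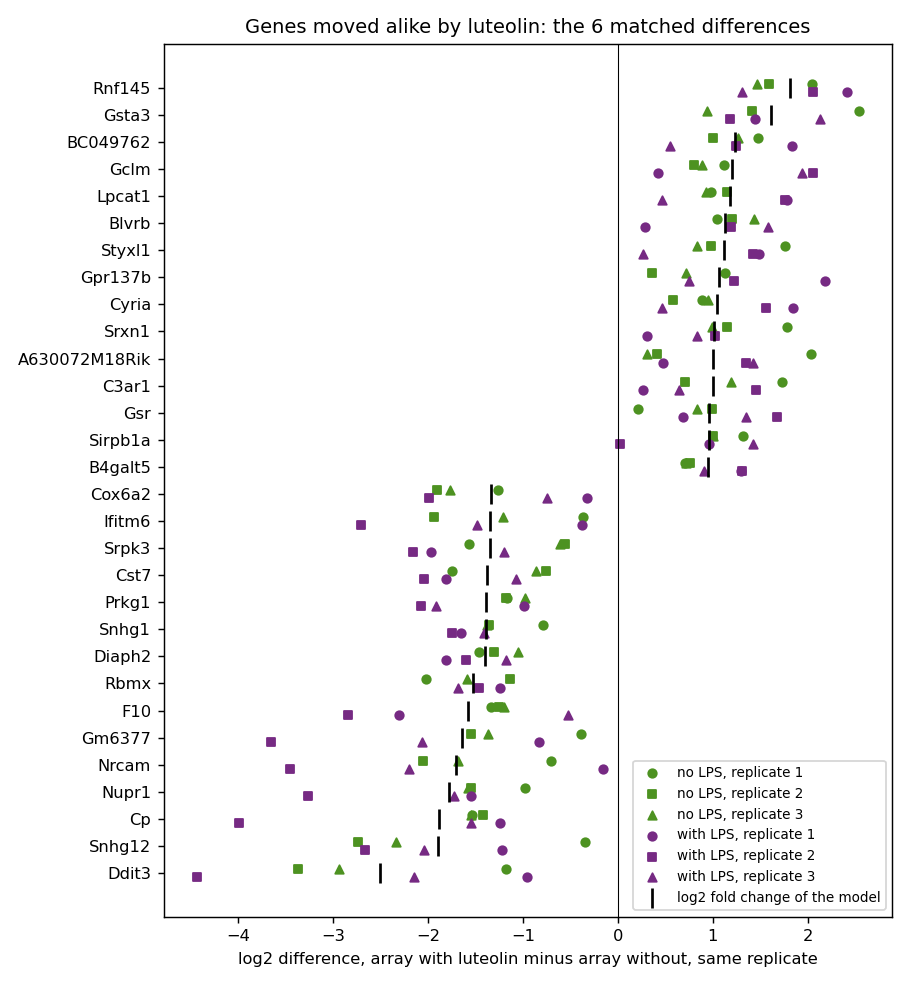
The 6 differences in log2 signal between arrays of the same replicate number (x axis) for the 15 genes in each direction with the largest change among those that moved alike (y axis), green without LPS and purple with LPS, with the model's log2 fold change as a black bar. All points of a gene lie on 1 side of 0, as the rule demands, and Sirpb1a in replicate 2 with LPS lies at 0.02.

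Genes of the NRF2 and antioxidant programme were the largest group of increases among the lists examined. Of 31 tested, 14 rose and none fell, against 3.76% of all genes higher, and 11 of the 14 moved alike. This and the other lists were chosen with earlier results of these data known. The shares of all genes set beside the lists are therefore a description, not a test. The list's median log2 fold change was 0.36 against 0.01 over all genes, and its median was above 0 in each of the 6 pairs, from 0.15 in replicate 1 with LPS to 0.60 in replicate 3 with LPS. The members that rose belong to several steps of the programme. These are glutathione synthesis (Gclm, Gclc), its recycling and use (Gsr, Gsta3) and thioredoxin and peroxiredoxin repair (Txnrd1, Txn1, Srxn1). Others are quinone and haem breakdown products (Nqo1, Blvrb), hydrogen peroxide removal (Cat), NADPH supply (Pgd, Taldo1, Me1) and glucuronidation (Ugdh).

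The antioxidant response element core, TGACNNNGC on either strand, was searched in the RefSeq promoter windows of GRCm38.p6, 250 bases before to 50 after a gene's start. A window was at hand for 9757 of the genes tested, and 16.8% of them held the core. It was found in 11 of 27 promoters of the list and in 7 of 12 promoters of its called members. It was also found in 9 of 27 promoters of the integrated stress response list and in 2 of 6 of that list's called members, which fell, and in 17.6% and 16.6% of the promoters of all genes that moved alike upwards and downwards. The matches that lie wholly before the start in called members are printed because these genes carry the increase. The core is in capitals, read on the strand of the gene, and it begins 121 bases before the start in Gsta3, 134 in Gclm, 132 and 94 in Ugdh and 92 in Txnrd1. A match is a description of the sequence, not a bound site.
Gsta3, chr1:21240442-21240494, + strand: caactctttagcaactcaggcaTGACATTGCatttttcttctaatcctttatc
Gclm, chr3:122245401-122245453, + strand: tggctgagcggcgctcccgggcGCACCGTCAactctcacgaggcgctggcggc
Ugdh, chr5:65435944-65435996, - strand: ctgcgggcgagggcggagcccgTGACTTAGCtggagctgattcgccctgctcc
Ugdh, chr5:65435906-65435958, - strand: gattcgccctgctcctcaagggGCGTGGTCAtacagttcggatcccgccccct
Txnrd1, chr10:82859092-82859144, + strand: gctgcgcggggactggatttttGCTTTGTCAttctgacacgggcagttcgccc

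Gsta3, a glutathione S-transferase, had signals of 39.4, 19.3 and 22.5 in control arrays and 229, 51.2 and 43.1 with luteolin. With LPS they were 75.4, 35.1 and 26.1, and with luteolin + LPS 205, 79.7 and 113.7. Replicate 1 was high in all 4 conditions, so that the groups overlapped although each array with luteolin exceeded its partner. Gsta3 rose by 1.61 on the log2 scale (SE 0.19, adjusted p = 0.00314), and 5 of the 6 signals without luteolin were below 50. With signals under 50 set to 50 it was 0.92 (adjusted p = 0.0489), below the values of Gclm, Blvrb and Srxn1.

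Gclm, the modifier subunit of the enzyme that limits glutathione synthesis, had 496, 391 and 313 in control arrays and 1075, 682 and 578 with luteolin. With LPS it had 1737, 576 and 424, and with luteolin + LPS 2329, 2394 and 1623. The LPS array of replicate 1 stood above the 3 luteolin arrays without LPS. The log2 fold change was 1.20 (SE 0.20, adjusted p = 0.00881), and a further probe set of Gclm gave 1.45.

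Blvrb, biliverdin reductase B, had 1697, 884 and 823 in control arrays, 3498, 2033 and 2223 with luteolin, 3991, 1342 and 1240 with LPS and 4849, 3069 and 3719 with luteolin + LPS (log2 fold change 1.12, adjusted p = 0.00386). Srxn1, sulfiredoxin, had 451, 525 and 540 in control arrays, 1552, 1162 and 1076 with luteolin, 2531, 1003 and 936 with LPS and 3136, 2030 and 1664 with luteolin + LPS (1.01, adjusted p = 0.0155). Its 4 probe sets with a mean signal of at least 50 gave 0.31 to 1.01. In both genes the LPS array of replicate 1 was high and the difference within that pair the smallest.

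Nqo1, a quinone reductase, had 42.5, 33.2 and 46.0 in control arrays, 69.0, 103 and 68.7 with luteolin, 46.6, 43.9 and 59.8 with LPS and 82.1, 94.6 and 91.5 with luteolin + LPS. The groups with and without luteolin did not overlap, at a level near background (log2 fold change 0.91, adjusted p = 0.00472). A gene was tested only if its mean reached 50 in some condition, and Nqo1 and Gsta3 did so only with luteolin. Both thus entered the list through the arrays in which they are high, and both are counted among its increases. Smaller increases were those of Gsr (0.96), Cat (0.73), Pgd (0.68), Taldo1 (0.60), Txnrd1 (0.54), Gclc (0.49), Ugdh (0.47), Me1 (0.36) and Txn1 (0.34), of which Taldo1, Me1 and Txn1 did not move alike.

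Of the 17 members that did not pass the test, values ranged from -0.36 for Sod2, the mitochondrial superoxide dismutase, to 0.72 for Slc7a11, the cystine transporter (adjusted p = 0.21). Hmox1, haem oxygenase 1, had 567, 2305 and 2005 in control arrays and 2623, 3797 and 3157 with luteolin. With LPS it had 4629, 6455 and 5261, and with luteolin + LPS 4374, 8137 and 7327. Its log2 fold change was 0.72 (adjusted p = 0.0907), with 1.20 without LPS and 0.24 with LPS. Nfe2l2, which encodes NRF2 and was not on the list, had 0.31 (adjusted p = 0.0623). Leaving out 1 array left 11 to 17 members called higher, and 11 members were called in each of the 12 fits. Taldo1, Me1 and Txn1 were called in 4, 3 and 2 of them.

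**Figure D3:**
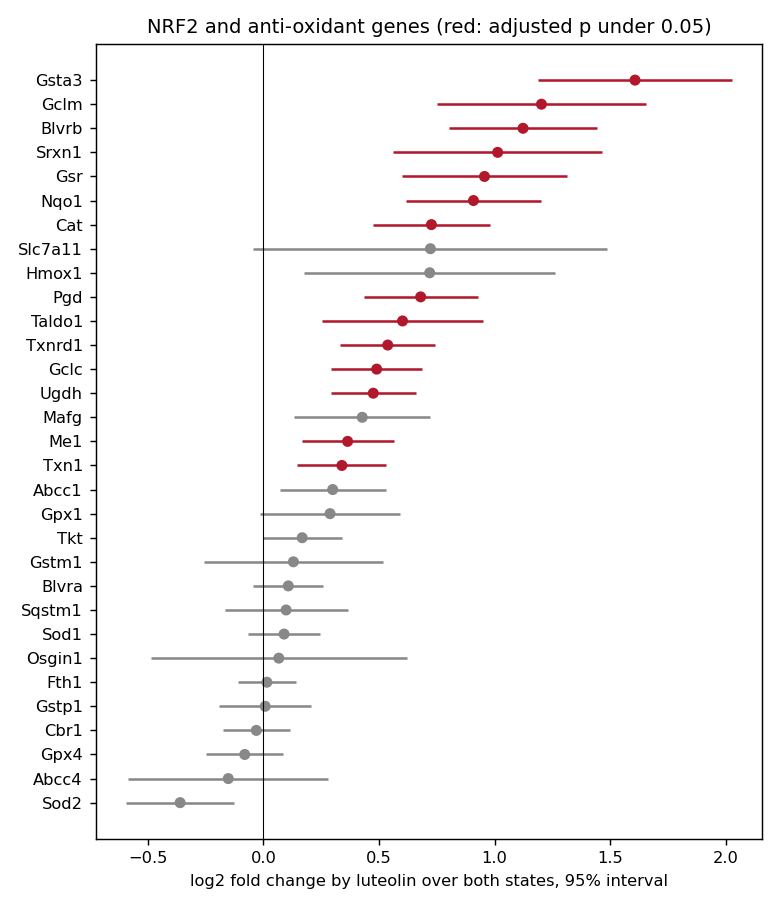
Log2 fold change by luteolin over both states with its 95% interval (x axis) for the 31 tested genes of the NRF2 and antioxidant list (y axis), red where the adjusted p was under 0.05. The 14 red genes lie above 0, and the value of Gsta3 (1.61) rests on signals mostly below 50 without luteolin, while Slc7a11 and Hmox1 have wide intervals.

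In 3 lists of lipid genes most members did not pass the test. Of 16 tested LXR and RXR targets and phospholipid acyltransferases, 4 rose and none fell, against 3.76% of all genes higher, with Rnf145, Lpcat1, Mylip, which targets the LDL receptor for breakdown (log2 fold change 0.70), and Lpcat2 (0.54) as those called, while the list's median was 0.09. Leaving out luteolin replicate 1, LPS replicate 3 or luteolin + LPS replicate 3 left 2. The paper lists Rnf145 and Lpcat1 as raised by luteolin in these same arrays, so their calls in this list are no separate support. It also lists other genes named here, among them Fasn, Gclm, Srxn1, Blvrb, Ddit3, Nupr1, Snhg1 and Rbmx. Their calls are no separate support either. Of 18 fatty acid synthesis genes 3 rose and none fell, against the same share of all genes, Fasn, the fatty acid synthase (0.84), Me1 and Elovl1 (0.31), with a median of 0.11. Only Fasn of the 3 stayed called in each fit without 1 array. In 21 tested cholesterol synthesis genes Ebp rose (0.52) and Mvd (-0.51) and Lss (-0.40) fell, against 3.76% of all genes higher and 6.01% lower, with a median of -0.08. Of the 12 fits without 1 array, Mvd was called in 3 and Lss in 2.

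Lipa, lysosomal acid lipase, had a signal of 3662, 2180 and 2377 in control arrays and 6097, 4128 and 4972 with luteolin. With LPS it was 3996, 2063 and 1491, and with luteolin + LPS 6252, 4393 and 3214. Each array with luteolin exceeded its partner, and the log2 fold changes were 0.91 without and 0.95 with LPS (0.93 over both, SE 0.13, adjusted p = 0.0045). Lipa was the only gene called higher of 31 lysosomal genes, and Ctsc, cathepsin C, the only one called lower (-0.59, in 4 of 12 fits without 1 array), with a list median of -0.06. Both shares were 3.23%, against 3.76% of all genes higher and 6.01% lower.

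Slc11a1, the NRAMP1 metal transporter of phagosomes, had 2715, 2025 and 1825 in control arrays and 4599, 3432 and 3784 with luteolin. With LPS it had 4246, 3147 and 2833, and with luteolin + LPS 6532, 4564 and 5577. Slc11a1 rose by 0.86 without and 0.71 with LPS (0.78 over both, SE 0.08, adjusted p = 0.00161). Of 15 tested genes of iron and metallothioneins it was the only one to rise, and Cp, ceruloplasmin, and Slc39a10, a zinc importer, fell (median -0.03). These shares were 6.67% higher and 13.3% lower, against 3.76% and 6.01% of all genes.

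Nrp1, neuropilin 1, had lower signals in the LPS arrays and rose with luteolin in both states. Its signal was 2062, 1799 and 1983 in control arrays, 3259, 2738 and 2876 with luteolin, 981, 1100 and 1146 with LPS and 1996, 1836 and 1911 with luteolin + LPS, so that the arrays with both agents lay within the range of the control arrays. The log2 fold change was 0.72 (SE 0.08, adjusted p = 0.00243), and the 4 probe sets gave 0.71 to 0.79. Kdr, a VEGF receptor, rose by 0.88, with 0.56 without and 1.20 with LPS, which put it outside the rule. Plxnd1, a semaphorin receptor, fell by 0.54 and was called in 3 of 12 fits without 1 array. These were the calls among 20 tested VEGF receptors, neuropilins and plexins, with a median of 0.02. In this list 10% rose and 5% fell, against 3.76% and 6.01% of all genes.

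Further receptors and signalling genes moved in both directions. Of 26 phagocytic and scavenger receptors C3ar1, Cd14 and Clec7a, the beta-glucan receptor (0.56), rose, and Mrc1, the mannose receptor (-0.68), and Havcr2 (-0.89) fell, with a median of -0.09. No gene of this list fell at the threshold without control replicate 2, LPS replicate 2, LPS replicate 3 or luteolin replicate 3. Of 17 MAP kinase phosphatases and feedback genes Dusp5 (0.70) and Dusp6 (0.87) rose and Dusp10 (-0.51) fell, of 19 immediate early genes Jun (0.57) and Nr4a1 (0.81) rose, and of 23 apoptosis regulators Bcl2l11 rose (0.82) and Bcl2 fell (-0.65). The medians of these lists were -0.01, 0.23 and 0.03. Their shares higher and lower were 11.8% and 5.88%, 10.5% and 0%, and 4.35% and 4.35%. The receptor list had 11.5% and 7.69%, against 3.76% and 6.01% of all genes. Nr4a1 stayed called in 11 of the 12 fits without 1 array, Dusp5 in 6, Jun, Bcl2l11 and Bcl2 in 4, Dusp10 in 3 and Dusp6 in 2. Tram1, a subunit of the translocon, was the only call among 28 genes of the unfolded protein response and the endoplasmic reticulum (0.78, list median 0.11), and its signals of 2719 to 3375 with luteolin did not overlap with 1179 to 2462 without it. Of that list 3.57% rose, against 3.76% of all genes.

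The largest decrease among called genes was that of Ddit3, the transcription factor CHOP, which the integrated stress response induces. Its signal was 5166, 5253 and 5235 in control arrays and 2278, 511 and 682 with luteolin. With LPS it was 9528, 10201 and 12197, and with luteolin + LPS 4921, 473 and 2761. All 6 arrays with luteolin lay below all 6 without it, and replicate 1 had the smallest difference in both states. The log2 fold change was -2.50 (SE 0.41, adjusted p = 0.00837), with -2.49 without and -2.51 with LPS, and a dimmer probe set of the gene gave -0.37. The interval of the difference between states was wide, -1.97 to 1.94.

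Of 33 tested genes of the integrated stress response 7 fell and none rose, against 6.01% of all genes lower, and 5 of the 7 moved alike. The others that fell were Nupr1, a stress-induced chromatin protein (-1.77), Trib3, a pseudokinase (-1.14), Ppp1r15a, the GADD34 phosphatase subunit (-0.77), and the aminoacyl-tRNA synthetase genes Aars (-0.62), Wars (-0.60) and Eprs (-0.37). The list as a whole had a median of -0.16, which was -0.23 without and -0.02 with LPS, and 8 members had an unadjusted interaction p under 0.05. The 26 members that were not called ranged from -0.61 for Aldh1l2 to 0.22 for Shmt2, both of mitochondrial folate metabolism, and Asns, asparagine synthetase, had -0.05 and Atf4 -0.33 (adjusted p = 0.0859). Leaving out control replicate 2, control replicate 3, LPS replicate 2 or LPS replicate 3 left 4 members called lower.

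The core of the C/EBP-ATF composite element, TGATGNAA on either strand, was present in 2.73% of the 9757 promoter windows, in 7 of 27 of this list and in 3 of 6 of its called members (Trib3, Nupr1 and Aars). The E-box CACGTG, searched in the same windows, was present in 11.6% of all and in 2 of 27 of this list. Both were called members, Nupr1 and Aars, so that 2 of 6 called members held it. It was also found in 7 of 29 promoters of the ribosome biogenesis list and in 1 of 7 of that list's called members. In the NRF2 list it was found in 2 of 27 promoters and in 0 of 12 of the called members. The composite cores before the start of called members are shown in the same way, in GRCm38.p6, and begin 110 bases before the start in Nupr1 and 112 in Aars.
Nupr1, chr7:126625551-126625602, - strand: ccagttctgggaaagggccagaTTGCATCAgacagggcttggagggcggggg
Aars, chr8:111033708-111033759, + strand: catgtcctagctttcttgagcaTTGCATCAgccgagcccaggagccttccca

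Nupr1 had signals of 1534, 1199 and 1254 in control arrays and 780, 410 and 419 with luteolin. With LPS they were 3789, 3098 and 3641, and with luteolin + LPS 1298, 322 and 1103. With both agents, replicate 1 lay within the range of the control arrays and the other arrays below it. The adjusted p was 0.00472, and the 2 probe sets gave -1.79 and -1.77. Trib3 had 2774, 2882 and 3066 in control arrays, 1677, 962 and 863 with luteolin, 2283, 2537 and 3329 with LPS and 1921, 672 and 2288 with luteolin + LPS, where replicate 3 overlapped with the LPS arrays (adjusted p = 0.0236).

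Of the host genes of small nucleolar RNAs (snoRNAs), 5 fell. These transcripts carry snoRNAs in their introns, and many of their spliced RNAs are degraded by nonsense-mediated decay. Of 16 tested, Snhg12, Snhg1, Snhg5, Snhg16 and Snhg7 fell and none rose, against 6.01% of all genes lower, 3 of them moved alike, and the median was -0.32. Of the 16, 4 had a value above 0. The median was below 0 in each pair, from -0.07 in replicate 1 without LPS to -0.60 in replicate 2 without LPS. Leaving out 1 array left 4 to 6 called.

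Snhg12 had 783, 2485 and 2018 in control arrays and 615, 372 and 400 with luteolin. With LPS it had 1432, 2112 and 1828, and with luteolin + LPS 616, 333 and 446. No array with luteolin reached the lowest array without it (log2 fold change -1.89, SE 0.28, adjusted p = 0.00542).

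Snhg1 had 2303, 3621 and 3945 in control arrays, 1336, 1418 and 1515 with luteolin, 3899, 4760 and 5454 with LPS and 1243, 1423 and 2049 with luteolin + LPS, again with no overlap (-1.39, SE 0.11, adjusted p = 0.00103). Its 3 bright probe sets gave -1.24 to -1.50, and the 2 dim ones -0.05 and -0.43. Snhg5 fell by 0.95 and Snhg16 by 0.89, both with no overlap, though a further Snhg16 probe set gave -0.03. Snhg7 fell by 0.53 and stayed called in 2 of 12 fits without 1 array. Of those not called, Zfas1 had -0.73 (adjusted p = 0.0521), Gas5 -0.38, Dancr 0.37 and Snhg4 0.45.

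Of 34 tested genes of ribosome biogenesis 7 fell and none rose, against 6.01% of all genes lower, and 6 of the 7 moved alike. A value below 0 was found in 31 of the 34, against 5909 of all 12071 genes, and the median was -0.17. Noc2l (-0.67), Wdr43 (-0.61), Nolc1 (-0.48), Heatr1 (-0.46), Rrp1b (-0.44), Gnl3 (-0.42) and Wdr12 (-0.32) were the members called. Wdr43, a small-subunit processome factor, had 1595, 1902 and 1886 in control arrays, 876, 1276 and 1224 with luteolin, 1708, 1842 and 1752 with LPS and 995, 1413 and 1307 with luteolin + LPS, with no overlap (adjusted p = 0.00399). Noc2l and Nolc1 each had a further probe set near 0, at -0.07 and -0.01. The list's median was closer to 0 with LPS (-0.08) than without (-0.27), a difference that was not tested, and the number of members called was 13 if LPS replicate 1 was dropped, 10 if luteolin + LPS replicate 2 was dropped and 4 to 6 in the other fits. It was 4 without replicate 2 or 3 of the LPS arrays, 1 or 3 of the luteolin arrays, 2 of the control arrays or 1 of the luteolin + LPS arrays.

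Among 36 SR proteins, hnRNPs and splicing kinases 5 fell (13.9%) and none rose, against 6.01% of all genes lower, 4 of them alike, with a median of -0.10. Rbmx, which encodes hnRNP G, had 751, 336 and 475 in control arrays and 185, 153 and 158 with luteolin. With LPS it had 653, 453 and 710, and with luteolin + LPS 276, 165 and 221. The groups did not overlap, and the adjusted p of 9.81e-04 was the lowest of all genes (log2 fold change -1.52, SE 0.12). The other Rbmx probe set with a mean of at least 50 gave 0.04 at signals of 38.4 to 71.1, and single probes were not used here.

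The kinases Srpk1 (-0.61), Clk2 (-0.45) and Srpk2 (-0.32) and the splice site factor U2af1 (-0.31) also fell. For Srpk1 a probe set of nearly the same brightness gave 0.07, so that its decrease holds for 1 of 2 probe sets. Srpk3, a muscle-enriched relative that was not on the list, fell by 1.35. Srsf5 had 0.57 (adjusted p = 0.27) and Hnrnpa1 -0.16, and no SR protein gene passed the test. Rbmx, Srpk1 and Clk2 were called in each of the 12 fits without 1 array, Srpk2 in 2 and U2af1 in 1, and 3 members were called in each fit other than those without LPS replicate 1 (5) or luteolin + LPS replicate 2 or 3 (4).

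Diaph2, a formin that extends actin filaments, fell from 676, 539 and 437 in control arrays to 244, 218 and 210 with luteolin. It fell from 600, 706 and 589 with LPS to 171, 233 and 260 with luteolin + LPS. The signals of both states overlapped without luteolin and again with it. All arrays with luteolin lay below all arrays without it (log2 fold change -1.40, SE 0.14, adjusted p = 0.00124), and the other probe set gave -1.49. Of 28 actin and filopodia regulators Arhgap24 (-0.98) and Enah (-0.56) also fell, and Pfn1 rose (0.31), with a median of 0.01. These 3 were called in 7, 5 and 3 of 12 fits without 1 array. In the actin list 3.57% rose and 10.7% fell, against 3.76% and 6.01% of all genes. Prkg1, the cGMP-dependent kinase, had 417, 294 and 275 in control arrays, 185, 130 and 140 with luteolin, 335, 337 and 392 with LPS and 168, 79.9 and 104 with luteolin + LPS, with no overlap (-1.38, SE 0.15, adjusted p = 0.00243).

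Cst7, cystatin F of lysosomes, had 2872, 2473 and 2691 in control arrays, 853, 1464 and 1478 with luteolin, 4625, 3457 and 3280 with LPS and 1317, 838 and 1564 with luteolin + LPS. The groups did not overlap, and the signals with both agents lay below all control arrays (-1.38, SE 0.20, adjusted p = 0.00451). Slc39a10 had 954 to 1839 with luteolin and 1666 to 2888 without (medians 1367 and 2496), a decrease of 0.77 that was alike in all 6 pairs (SE 0.07, adjusted p = 0.00103).

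Cp had 206, 149 and 196 in control arrays, 71.0, 55.7 and 67.3 with luteolin, 1596, 939 and 1565 with LPS and 676, 59.1 and 535 with luteolin + LPS. Its LPS-induced signal in replicate 2 was at the level of luteolin alone, and in the other replicates between those of the control and LPS arrays (-1.88, SE 0.39, adjusted p = 0.0174). All 5 probe sets with a mean of at least 50 gave -1.88 to -2.44. Cd74, the MHC class II invariant chain, had 608 to 3475 with luteolin and 1296 to 4681 without, with a log2 fold change of -1.05 in each state (adjusted p = 0.011). It was the only call of 14 antigen presentation genes, whose median was -0.48 over both states, 0.00 without and -0.74 with LPS, and 1 to 5 of them were called lower without 1 array. The share of this list called lower was 7.14%, against 6.01% of all genes.

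The other decreases among the 15 largest that moved alike were those of Nrcam, a cell adhesion molecule (-1.71, with -0.17 in 1 of 3 probe sets), Gm6377 (-1.64), F10, coagulation factor X (-1.57), Ifitm6 (-1.35) and Cox6a2, the muscle isoform of a cytochrome c oxidase subunit (-1.33). Of the 15 largest decreases, F10 was called in 7 of the 12 fits without 1 array, Gm6377 in 8, Nrcam, Cp and Ifitm6 in 10 and the other 10 genes in each. While Cox6a2 fell, its list of 33 respiratory chain genes held 3 that rose, Ndufa4 (0.55), Cox6b1 (0.37) and Cox7a2 (0.27), with a median of 0.10. Without LPS replicate 2, LPS replicate 3, control replicate 2, control replicate 3, luteolin replicate 2, luteolin replicate 3, luteolin + LPS replicate 2 or luteolin + LPS replicate 3, Ndufa4 was the only one of the 3 still called. In the respiratory chain list 9.09% rose and 3.03% fell, against 3.76% and 6.01% of all genes.

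Of 14 heat shock genes Hspb7 (-1.29), Hspa4l (-0.47), Hspa9 (-0.33) and Hspa4 (-0.31) fell and none rose, against 6.01% of all genes lower, with a median of -0.02. Leaving out control replicate 2, control replicate 3 or LPS replicate 2 left 1, and LPS replicate 3 or luteolin replicate 1 left 2. In 28 genes of glycolysis and the hypoxia response P4ha1 (-0.65) and Car9 (-0.41) fell and Slc16a3 rose (0.68), with a median of -0.09. The shares were 3.57% higher and 7.14% lower, against 3.76% and 6.01% of all genes. P4ha1 was called in each of the 12 fits without 1 array, Slc16a3 in 6 and Car9 in 2. Of 14 genes of complement and the acute phase Cp, Cst7 and Slpi (-0.94) fell and C3ar1 rose, with a median of -0.71 that was -0.01 without and -1.26 with LPS. Here 7.14% rose and 21.4% fell, against 3.76% and 6.01% of all genes. Slpi was called in 5 of 12 fits without 1 array. Nqo1 was the only call among 5 tested targets of the aryl hydrocarbon receptor (20% higher, against 3.76% of all genes, median 0.02). As said above, Nqo1 reached the minimum signal for testing only with luteolin. It thus entered this list, too, through the arrays in which it is high, and its call is already counted in the NRF2 list. The share of 20% is therefore no separate support for a rise of these targets.

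**Figure D4:**
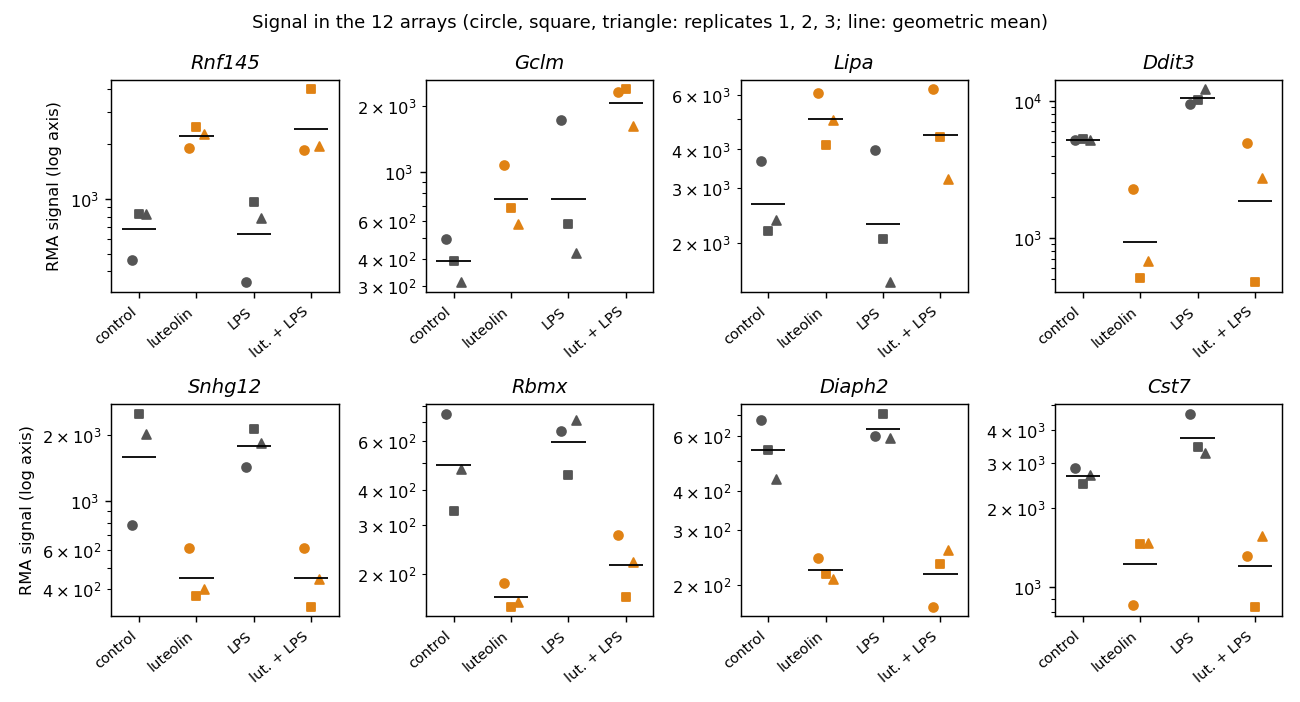
RMA signal (y axis, logarithmic) of 8 genes in the 12 arrays by condition (x axis), with circles, squares and triangles for replicates 1, 2 and 3, a line for the geometric mean and orange for arrays with luteolin. The orange points lie above the grey ones within each pair in Rnf145, Gclm and Lipa and below them in the other 5 genes. The ranges of the orange points of both states overlap in each gene except Gclm.

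LPS is known to induce interferon response genes and cytokines of the NFkB response. In these lists and in that of NFkB feedback, Ifitm6 was the only member that moved alike. Of 40 interferon response genes Ifitm6 fell (2.5%, against 6.01% of all genes lower) and no other was called. Even so, the median over both states was -0.73. That median was 0.07 without LPS and -1.24 with LPS, where it ranged from -0.34 in replicate 1 to -2.31 in replicate 2. Without luteolin + LPS replicate 2 it was -0.32 over both states. Ifitm3, an antiviral membrane protein, had 28.4 to 70.8 in control arrays and 25.8 to 52.7 with luteolin, close to background. With LPS it had 5903, 2258 and 1444, and with luteolin + LPS 179, 46.9 and 83.9. Its value over both states was -2.68 (adjusted p = 0.0619). Of the 40 genes 14 had an unadjusted p under 0.05 for the interaction, and none an adjusted one.

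Of 22 cytokines and chemokines of the NFkB response none was called over both states, with a median of -0.44 that was 0.02 without and -0.84 with LPS. Without luteolin + LPS replicate 2 the median over both states was -0.23. At an unadjusted p under 0.05, limma gave 7 lower and 1 higher. Il1rn had -1.54 (adjusted p = 0.0923), Tnf 0.10 and Csf3 0.93 (adjusted p = 0.0712). Of 21 NFkB feedback and signalling genes Nfkb2 fell (-0.38, in 3 of 12 fits without 1 array), with a median of -0.05. That is 4.76% of the list, against 6.01% of all genes lower. None of 34 cell cycle genes was called, and 4 were higher in limma at an unadjusted p under 0.05, with a median of 0.23 and pair medians from -0.63 in replicate 1 without LPS to 0.75 in replicate 2 without LPS, and 7 were called higher without control replicate 1.

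**Figure D5:**
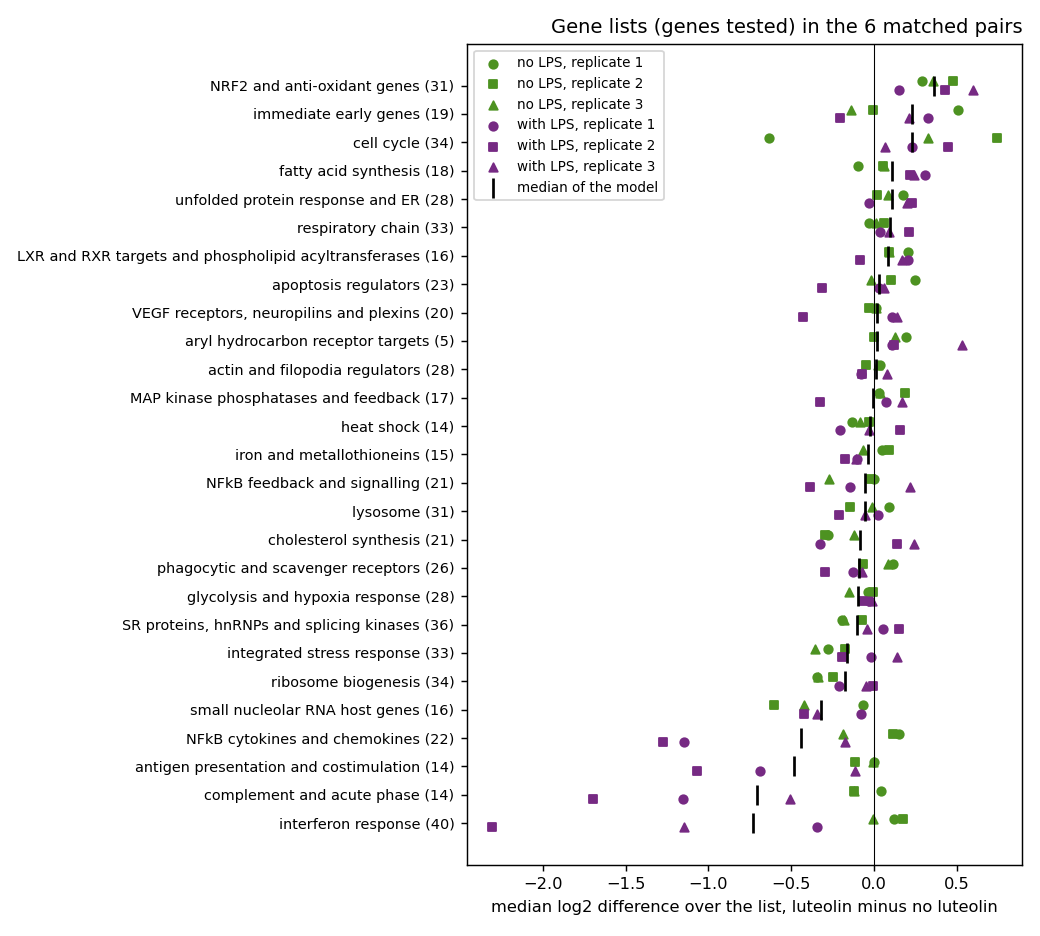
Median log2 difference between arrays with and without luteolin (x axis) over the tested genes of 27 lists (y axis, number of genes in brackets) in each of the 6 pairs, green without LPS and purple with LPS, with the median of the model as a black bar. The NRF2 list lies above 0 in all 6 pairs, and the snoRNA host gene, ribosome biogenesis and glycolysis lists lie below 0. The ribosome biogenesis list is at -0.007 in replicate 2 with LPS, and the glycolysis list at -0.007 in replicate 2 without LPS. The interferon, complement and cytokine lists are near 0 without LPS and low with LPS.

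The states were then taken one at a time, since the 6 resting and the 6 LPS arrays have no array in common, though they share replicate numbers. In the resting arrays alone 84 genes were called (0.696%), 28 higher and 56 lower. Of the 28, 24 had the same sign in the LPS arrays, against 52.9% of all genes. In 16 of them the unadjusted p was under 0.05 there, against 7.56% of all genes in that direction. The median log2 fold change of the 28 genes was 0.94 in the resting arrays and 0.63 in the LPS arrays. They included Rnf145, Gclm, Blvrb, Cat, Lipa, Lpcat1, Slc11a1, B4galt5 and Srxn1. Of the 56 that fell, all had the same sign in the LPS arrays, against 47.1% of all genes. In 43 of them the unadjusted p was under 0.05 there, against 9.08% of all genes. The medians of the 56 genes were -0.88 in both states. This look-up was added after the data were seen. The number of resting calls depended on single arrays. It rose to 623 genes higher and 959 lower in limma without control or luteolin replicate 1. No gene was called in either direction without replicate 2 or 3 of either condition.

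In the LPS arrays alone 4 genes were called (0.0331%), all lower: Ifitm3 (-4.91), Slamf7 (-2.89), Gm9706 (-2.43) and Serpinb1a (-2.01). In the resting arrays 2 of the 4 had the same sign, against 52.9% of all genes. Serpinb1a had an unadjusted p under 0.05 there, against 15% of all genes in that direction. Slamf7 (0.00) and Gm9706 (0.08) had values near 0 there. None of the 4 was called without replicate 3 of the LPS or the luteolin + LPS arrays.

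The number of calls depended on single arrays. The 12 fits that left out 1 array gave 490 to 1574 called genes. The total fell more than 1.5 times without LPS replicate 2 (490), control replicate 2 (506), LPS replicate 3 (560), luteolin replicate 3 (633), control replicate 3 (691) or luteolin replicate 1 (702). In each of the 12 fits 417 of the 1179 genes stayed called, 388 of which moved alike. Leaving out the 4 arrays of a replicate number left limma with 1071 called genes without number 1, 15 without number 2 and 0 without number 3. The unadjusted p of the 1179 genes stayed under 0.05 in 1168, 1143 and 1138 of them, which shares the arrays the genes were called on and is no separate support.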

How the data were processed

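Affymetrix mouse expression arrays of 12 BV-2 samples were used, 3 per condition. The authors summarized probes with RMA and deposited 1 intensity a probe set without a log, and log2 was taken here. Of 45101 probe sets, 34958 named 1 gene, 932 several and 9211 none here. The probe set with the highest mean stood for a gene, and a gene was tested if its mean reached 50 in any of the 4 conditions (12071 of 18194). limma 3.58.1 (lmFit, eBayes, R 4.3.3) fitted luteolin, LPS and replicate number, with Benjamini-Hochberg adjustment over all genes tested. An interaction term gave the values in each state. The scripts were tested on simulated data. Samples of the same number deviated together in all 18 pairs (r 0.101 to 0.591), and the paper describes replicate experiments, so the number was kept as a term. The median r was 0.42 for the same number and -0.295 for different numbers. Some arrays of numbers 2 and 3 also deviated together. Luteolin 2 had 0.483 with luteolin + LPS 3, against 0.186 with luteolin + LPS 2. p-values measure the spread between these arrays, and depth on arrays is limited by their number and signal over background.

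The members and the 27 gene lists were chosen with earlier results of these data known. Named genes were the 15 largest changes in each direction among those that moved alike, the 5 largest among other called genes, Rnf145 and Ddit3, and the members with the largest changes of each list. Other list members named, and Gm9706, were chosen after their values were seen. Of 738 list entries 637 were tested. Alternatives covered the replicate block, probe set choice, filters, floor, centring, weights, prior variance, thresholds and single arrays.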

Additional observations from a re-analysis of the deposited data

Results flagged for a closer look

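The 6 differences between arrays of the same number were checked in each of 130 named genes for a value far from the other 5. Such a value was found in 10, and how many chance alone would give was not tested. In replicate 2 with LPS, Cp had -3.99 (median of the 6 differences -1.54), Nupr1 -3.26 (median -1.56) and Ndrg1 -1.64 (median -0.45). Sirpb1a had 0.02 in the same pair (median 1.0). In replicate 1 with LPS, P4ha1 had -1.07 (median -0.60), Snhg16 -2.0 (median -0.73) and Srsf5 2.26 (median 0.24). In replicate 1 without LPS, Hmox1 had 2.21 (median 0.57), Jun 1.29 (median 0.45) and Cox7a2 0.01 (median 0.30).

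In 4 named genes all 3 differences were above 0 without LPS and all 3 below 0 with LPS. The log2 fold change with LPS minus that without was -3.39 for Gbp3 (interaction adjusted p = 0.75), -3.23 for Gbp2 (0.75), -2.98 for Cfb (0.0927) and -2.01 for Dusp14 (0.655), so that none passed the limma test of the difference. Gbp2, Gbp3 and Cfb had signals between 14.8 and 64.0 in all arrays without LPS.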

How the results depend on the processing

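The arrays were paired by their replicate numbers. Without the replicate block, 150 genes were higher and 258 lower, 132 and 226 of them alike, and with the number as a random block 394 and 638. Array weights gave 1180 higher and 1906 lower, 503 alike higher and 9 lower by interaction, and turned Dusp14 to 0.0182, Traf1 to 0.0571 and Tiparp to 0.0414. Signals under 50 set to 50 gave 2 genes lower by interaction. At an adjusted p under 0.01, 78 were higher and 148 lower, 74 and 148 alike. A ratio of 0.7 left 191 and 361 alike. In resting arrays alone (28 higher, 56 lower), there were 0 and 0 without the block, 65 and 126 without a filter, 0 and 0 with the floor, 1074 and 1777 with array weights, 61 and 115 with a prior trend, and 32 lower after centring. In LPS arrays alone, the 4 lower became 0 without the block and 0 with the floor. The cause was not tested. Leaving out 1 array or 1 replicate number gave 0 to 539 higher and 0 to 1035 lower genes, 0 to 419 and 0 to 810 alike, 0 to 3 lower by interaction, 0 to 623 higher and 0 to 959 lower in resting arrays and 0 to 6 lower in LPS arrays. Fos had -0.0931 to 1.29 when arrays or numbers were left out, the lowest without replicate 1. Over 130 named genes and 26 settings, 2778 values kept direction and side of the threshold, 515 lost the call, 69 gained it, 4 reversed and 14 had none because a stricter signal minimum left the gene out.

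Limits: 3 arrays per condition, signals near background for Gsta3, Nqo1 and Styxl1, and 1 probe set per gene limit the precision.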
